A study of Mus musculus with 60 samples.

Results

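Single cholangiocyte organoids that carried the most Mki67 mRNA were compared with those that carried the least. Of 42 single organoid libraries, 35 were kept and ranked by Mki67 CPM, the count in proportion to the library total on the usual scale of 1000000 counts. The 10 highest formed the Mki67-high group, the 10 lowest the Mki67-low group, and 15 organoids fell in neither. These 20 libraries are part of 60 samples in the series. All organoids came from intrahepatic bile ducts of untreated C57BL/6N mice, male and labelled as 3-4 months old, and no group carried a transgene, a deletion or a drug. Each of the 4 sets was grown from the liver of 1 mouse, so organoids of a set share an animal. Set 1 was harvested at passage 11, Sets 2 and 3 at passage 3 and Set 4 at passage 4. Organoids were started in Matrigel domes, moved to shaking suspension in 10% Matrigel, picked one by one without a dark lumen and in various sizes, and read by 3′-end RNA-seq. Groups were chosen by Mki67, a measured value, and P-values describe groups chosen in this way, with Mki67 itself left out of the test. The Mki67-high group held 2 organoids of Set 1, 5 of Set 2, 1 of Set 3 and 2 of Set 4, against 2, 3, 0 and 5 in the Mki67-low group. Passage and set cannot be told apart here, and Set 3 adds nothing to a comparison made within sets.

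Ki-67, the product of Mki67, coats mitotic chromosomes and is present in cycling cells but lost from resting ones, which made it the standard stain for proliferation. Genes of the cell cycle are switched on in waves. Replication genes rise at the entry to S phase through E2F sites, while genes for mitosis rise in G2 through promoter elements called CHR (cell cycle genes homology region), often placed close to CCAAT boxes. Cholangiocytes line the bile ducts, divide little in the healthy liver, and proliferate when kept as organoids in growth factor medium. An organoid holds many cells, so more cells of a kind and more RNA in each of them cannot be told apart.

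Mki67 (ENSMUSG00000031004, GRCm38 chromosome 7, 135689784 to 135716361) lay between 413 and 559 CPM in the Mki67-high organoids, with a median of 457, and between 109 and 210 CPM in the Mki67-low ones, with a median of 162. The counts behind these values were 474 to 2099 and 244 to 1264. The organoids in neither group ran from 231 to 397 CPM, so the ranking was a continuum and the limits were set by number alone. Just inside the limits lay Set 1 organoid 7 with 427 CPM and Set 4 organoid 5 with 413 CPM on the high side, and Set 2 organoid 6 with 207 CPM and Set 4 organoid 11 with 210 CPM on the low side. Just outside them lay Set 4 organoid 14 with 397 CPM, Set 4 organoid 6 with 391 CPM, Set 3 organoid 1 with 231 CPM and Set 3 organoid 4 with 248 CPM. These values chose the groups and were not tested.

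**Figure D1:**
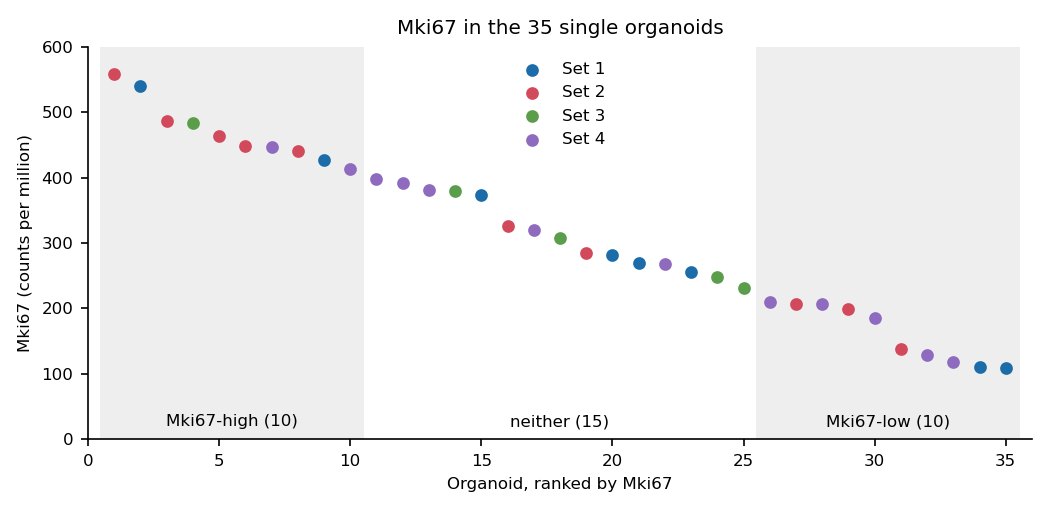
Mki67 in CPM for each of the 35 organoids, ordered from highest to lowest and coloured by set, with both groups of 10 shaded. The Mki67-high organoids sit between 413 and 559 CPM and the Mki67-low ones between 109 and 210 CPM, with 15 organoids filling the space between.

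The libraries differed in depth and makeup along the same ranking. Totals ran from 1059002 to 4522826 counts in the Mki67-high group and from 1180937 to 11175868 in the Mki67-low group, and the 5 libraries above 5000000 counts (Set 1 organoids 1 and 6, Set 4 organoids 1, 13 and 15) were all Mki67-low. The mean log10 total was 0.217 lower in the Mki67-high group, which the spread did not separate (permutation test, two-sided, p = 0.102, n = 10 each), whereas with the 8 highest and 8 lowest it was 0.292 lower (permutation test, p = 0.0429), in both cases without regard to set. Mitochondrial genes took 3.53% ± 0.642 of counts in the Mki67-high and 2.95% ± 0.614 in the Mki67-low organoids (mean ± SD, permutation test, two-sided, p = 0.0507). The cholangiocyte markers Epcam, Krt7, Krt19, Sox9, Spp1 and Cd24a were present in every organoid and summed to 3352 to 5891 CPM in the Mki67-high and 3178 to 7098 CPM in the Mki67-low group. The 6 macrophage, 7 endothelial and 7 mesenchymal markers found in the table summed to at most 7.87, 24.8 and 0.722 CPM in any of the 20 organoids, with Tyrobp, Pdgfra and Des at 0 throughout. Of these lists, Cd68 and Egfl7 were the only members that passed the filter on low counts. Egfl7 was lower in the Mki67-high group (log2 fold-change −0.81, SE 0.17, adj. P-value 0.000648).

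The difference between the groups was broad. Of 12281 genes tested with the set as a block, 3206 were higher in Mki67-high organoids, 26.1% of those tested, and 2973 were lower, 24.2%, at an adj. P-value below 0.05. The CPM ranges of the 10 and 10 organoids did not overlap for 435 genes that were higher (3.54%) and 63 that were lower (0.513%). With this share of genes called, a gene list is described here by its counts beside these percentages, and a count close to them says nothing particular about the list. The number of calls changed with the libraries included. Without Set 2, which left 12 organoids, they numbered 1443 and 1422. Without the 5 deepest libraries, an alternative added after seeing the data, 15 organoids gave 2038 and 1877. Fewer organoids also mean less power, and what lowered the counts was not tested.

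The direction of a gene went with the length of its transcript. Among protein-coding genes, the longest annotated transcript had a median of 4513 bases for genes that were higher in Mki67-high organoids, 3094 for genes not called and 1851 for genes that were lower. In the shortest 10% of genes (297 to 1254 bases) 59.8% were lower and 3.49% higher, and in the longest 10% (6663 bases and more) 2.83% were lower and 61.2% higher. Spearman's rho between log2 fold-change and length was 0.53 across 10598 genes, which are not independent of each other. The slope of each organoid's log2 levels on log2 length ran from −0.0528 to 0.304 per doubling in the Mki67-high organoids, with a median of 0.135, and from −0.311 to −0.0426 in the Mki67-low ones, with a median of −0.258. Only Set 4 organoid 5 among the Mki67-high organoids lay within the range of the Mki67-low ones. Within Set 2, the 5 Mki67-high organoids were between 0.117 and 0.207 and the 3 Mki67-low ones between −0.276 and −0.223. The Mki67 transcript itself, at 10061 bases, belongs to the longest 10%.

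Alternatives added after seeing the data take this gradient into account. With the smoothed length curve of each library as an offset, 2141 genes were higher (17.4%) and 1760 lower (14.3%), and the shortest and longest 10% had median log2 fold-changes of −0.01 and 0.03, against −0.53 and 0.66 without it. With the length slope as a covariate in the fit, no gene was called by edgeR. Of 12281 genes 495 had an unadjusted P-value below 0.05, or 4.03%. The slope nearly separated the groups, so this fit can hardly tell length and group apart. Mki67 also carried this gradient when the groups were chosen. Ranked by Mki67 after the same correction, the top 10 shared 7 organoids with the Mki67-high group and the bottom 10 shared 6 with the Mki67-low group. Tested with the length offset as well, here and below, this ranking gave 107 higher and 40 lower genes. List counts with the length offset, and for genes with values any call that it ends or adds, are therefore given beside the results that follow. What produced the gradient was not tested.

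**Figure D2:**
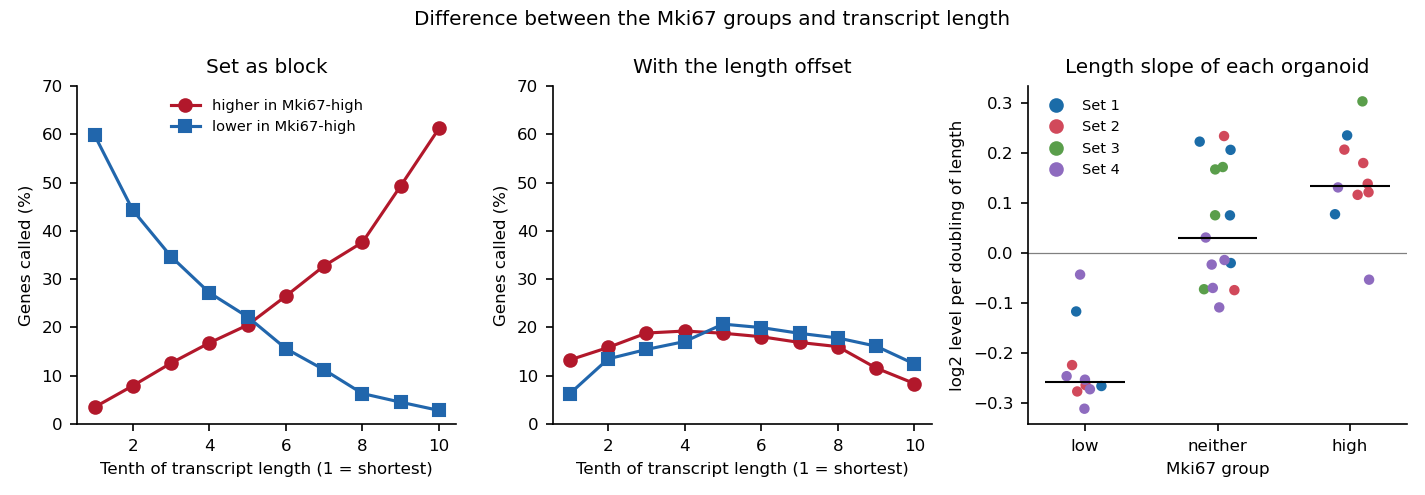
Left and middle, percentage of protein-coding genes called higher (red circles) or lower (blue squares) in Mki67-high organoids, in 10 classes of transcript length from shortest to longest, without and with the length offset. Right, slope of log2 level on log2 transcript length for each organoid by Mki67 group, coloured by set, with a line at the median, where the Mki67-low organoids lie from −0.311 to −0.0426 and the Mki67-high ones from −0.0528 to 0.304.

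Genes of the mitotic spindle, the kinetochore and cytokinesis had the largest median of the lists examined. Of 47 members, all of which were tested, 32 were higher in Mki67-high organoids and 0 lower, with a median log2 fold-change of 0.89 against 0.02 for all genes tested. With the length offset 33 were higher and 0 lower at a median of 0.77, against 17.4% and 14.3% of all genes. Leaving out each organoid in turn gave 31 to 34 higher and 0 to 3 lower members, with 3 lower only without Set 1 organoid 1 and 1 without Set 1 organoid 7. When the organoids were ranked by Mki67 after the length correction, 19 of the 107 genes called higher were from this list.

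Anln, which encodes anillin, the scaffold of the contractile ring, ran from 38.7 to 83.0 CPM in the Mki67-high organoids with a median of 55.8, and from 6.97 to 27.3 CPM with a median of 14.5 in the Mki67-low ones (log2 fold-change 1.74, SE 0.18, adj. P-value 3.03e-06). The ranges did not overlap. Dlgap5, a spindle assembly factor, lay between 28.7 and 59.1 CPM against 7.68 to 16.6 CPM, again without overlap (1.57, SE 0.16, 3.03e-06). Kif14, a kinesin of late cytokinesis, lay between 9.06 and 20.8 CPM against 1.97 to 8.16 CPM (1.63, SE 0.21, 1.21e-05). Kif20a, a kinesin of the central spindle, was the member with the largest of these changes (1.80, SE 0.25, 2.09e-05), with 9 of 10 Mki67-high organoids above the highest Mki67-low one. With the length offset these genes stayed higher, at log2 fold-changes of 1.39 for Anln, 1.30 for Dlgap5, 0.98 for Kif14 and 1.61 for Kif20a. Aspm, a spindle pole protein chosen here after its values were seen, ranged from 15.6 to 46.3 CPM against 4.83 to 14.2 CPM (1.55, SE 0.18, 6.90e-06).

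Promoters of this list often held the elements that mark G2 and M genes. CHR (searched as TTTGAA or TTCGAA on both strands, in 250 bases before and 50 after each RefSeq start) was present in 30 of 41 promoters of the spindle list, 73.2%, against 16.5% of the promoters of 8680 tested genes with an entry. CHR and CCAAT together were in 23 of 41, or 56.1%, against 8.20%. Of the members called higher in Mki67-high organoids, 20 of 28 held CHR, or 71.4%, and 15 of 28 held both, or 53.6%. Over all genes called higher the share with CHR was 18.1%, and over all called lower it was 15.7%. These are matches of letters and not binding sites, and no test was made.

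The following stretches show what these elements look like in 5 called members of the mitotic lists that had both within a span of 70 bases in the 250 bases upstream of the start, in order of their adj. P-values. Capitals mark the CHR match (TTTGAA or its complement TTCAAA) and CCAAT (or ATTGG). Sequences are from RefSeq on GRCm38.p6, 5′ to 3′ on the strand of the gene.
Kif11, chr19:37376332-37376373, plus strand: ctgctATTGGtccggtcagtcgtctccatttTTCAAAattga
Prc1, chr7:80294409-80294456, plus strand: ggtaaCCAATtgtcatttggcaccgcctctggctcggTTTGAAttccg
Ckap5, chr2:91526712-91526736, plus strand: gctctTTCAAAcggaCCAATaaagg
Ckap2l, chr2:129297217-129297247, minus strand: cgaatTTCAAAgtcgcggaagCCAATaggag
Ect2, chr3:27153924-27153997, minus strand: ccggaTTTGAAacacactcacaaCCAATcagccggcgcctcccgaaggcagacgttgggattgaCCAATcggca

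The genes behind these promoters were picked among called members by their adj. P-values. A difference between the groups therefore follows from the choice and says nothing about the elements. Kif11, the motor that pushes the spindle poles apart, lay between 51.3 and 103 CPM in the Mki67-high and between 12.1 and 33.8 CPM in the Mki67-low organoids (log2 fold-change 1.36, SE 0.17, adj. P-value 1.02e-05). Prc1, which bundles the microtubules of the central spindle, lay between 97.3 and 272 CPM against 24.1 to 88.4 CPM (1.51, SE 0.20, 1.37e-05). Ckap5, a microtubule polymerase, lay between 53.2 and 119 CPM against 19.1 to 40.8 CPM (1.08, SE 0.15, 2.09e-05). Ckap2l, which belongs to the spindle poles, lay between 60.5 and 140 CPM against 20.8 to 58.4 CPM (0.92, SE 0.16, 0.000103). In these 4 genes the groups did not overlap, as was so for 435 of 12281 genes that were higher (3.54%). With the length offset the values were 0.97, 1.46, 0.54 and 0.85, all called. Ect2, which sets the site of cytokinesis, overlapped, with 19.8 to 47.7 CPM against 5.91 to 34.4 CPM (0.82, SE 0.22, 0.00332), and was not called with the offset (0.55, 0.0501) or without the 5 deepest libraries (0.44, 0.152).

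Cyclins and kinases of mitosis, whose promoters carried CHR in 16 of 26, had values that depended on how length was taken into account. Of 32 members 7 were higher and 3 (Cks1b, Fzr1 and Pttg1) lower, both shares below those of all genes, with a median log2 fold-change of −0.08. With the length offset there were again 7 and 3, with a median of −0.02. Without the 5 deepest libraries 3 were higher and 4 lower, with a median of −0.32. With the length slope as a covariate 31 of 32 values were positive with a median of 0.74, beside 46 of 47 and 0.68 for the spindle list, and no member of either was called. Ranked by Mki67 after the length correction, 25 of 32 were positive with a median of 0.25, and 2 were higher and 0 lower. The members that were higher included the spindle checkpoint kinases Bub1 and Bub1b. Bub1 lay between 22.2 and 44.6 CPM against 5.37 to 17.9 CPM, without overlap (1.29, SE 0.16, 1.12e-05). Nek2, a centrosomal kinase, lay between 10.2 and 19.5 CPM against 1.54 to 9.83 CPM (1.24, SE 0.22, 0.000115). Bub1b (0.85, SE 0.21, 0.00238) and Mastl, the kinase that restrains the mitotic phosphatase (0.87, SE 0.20, 0.00134), overlapped between the groups, with 7 of 10 Mki67-high organoids above the highest Mki67-low one in each case, and Mastl was not called with the offset (0.41, 0.141).

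The central regulators, named here after their values were seen, lay within the range of the Mki67-low group in every Mki67-high organoid. Cdk1, the kinase that drives entry into mitosis, ran from 30.7 to 55.7 CPM with a median of 44.3 in the Mki67-high organoids and from 13.3 to 74.5 CPM with a median of 51.2 in the Mki67-low ones (log2 fold-change −0.30, SE 0.20, adj. P-value 0.205). Its partner Ccnb1 had medians of 47.2 and 46.5 CPM (−0.26, SE 0.20, 0.286) and Ccna2 of 47.3 and 42.3 CPM (−0.07, SE 0.19, 0.771). Plk1 (−0.10, SE 0.20, 0.689) and Cdc20, the activator of the anaphase promoting complex (0.03, SE 0.22, 0.930), were not called either. For each of these 5 genes the highest and the lowest value of all 20 organoids belonged to the Mki67-low group. Without Set 1 organoid 1, which held the most counts and the least Mki67, Cdk1 was called lower (−0.47, adj. P-value 0.0201), 8 members of the list were lower and 4 higher. Without Set 1 organoid 2 the list had 4 higher and 1 lower member, and without Set 2 organoid 11 it had 1 lower member. Cdk1 was also called lower with the length offset (−0.63, adj. P-value 0.0263) and without the 5 deepest libraries (−0.64, 0.0178). The values of Ccnb1, Ccna2, Plk1 and Cdc20 moved by over 1.5 times with several single libraries left out, without a call, between −0.40 and −0.20, −0.23 and 0.01, −0.27 and −0.02, and −0.14 and 0.25. With the length slope as a covariate all 5 regulators were positive, from 0.31 for Cdk1 to 1.15 for Ccnb1, and with the ranking after the length correction 4 were positive and Cdk1 was at −0.19, with no call in either.

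**Figure D3:**
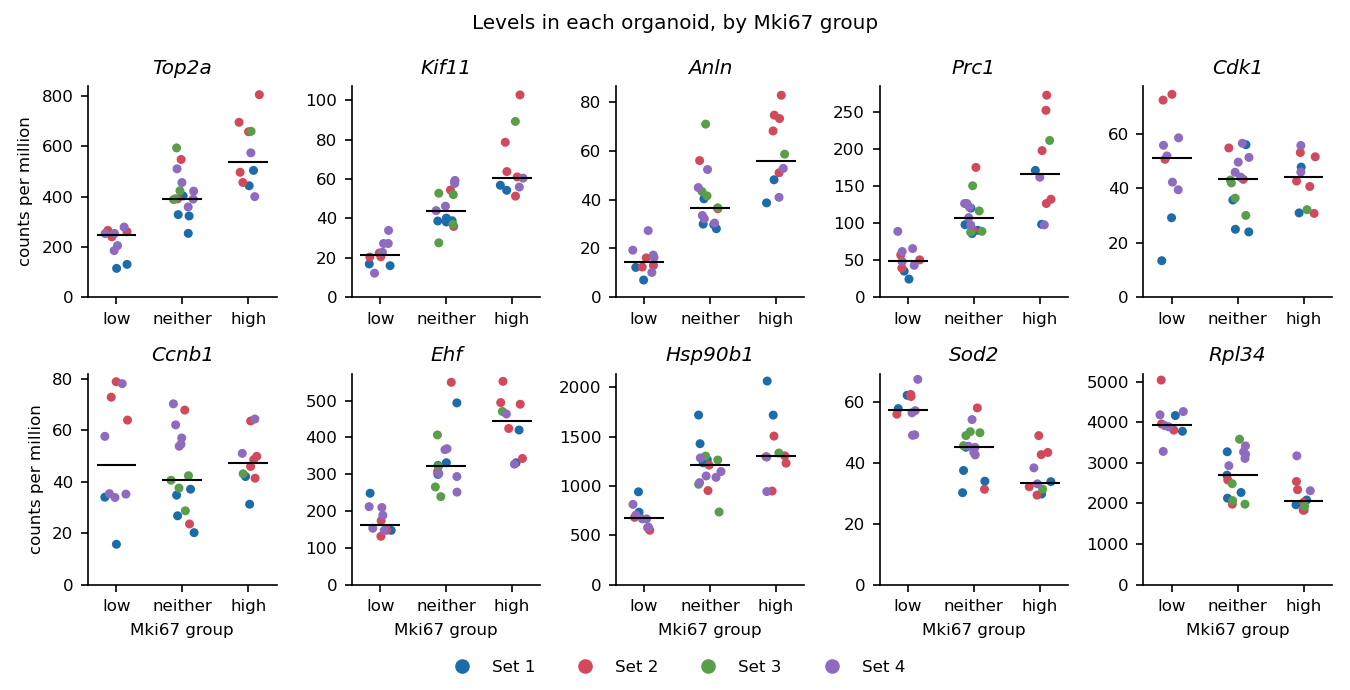
CPM of 10 genes in each organoid, by Mki67 group and coloured by set, with a line at the median. Top2a, Kif11, Anln, Prc1, Ehf and Hsp90b1 were higher without overlap in the Mki67-high organoids and Sod2 and Rpl34 lower without overlap, while Cdk1 and Ccnb1 overlapped fully.

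Genes that shape chromosomes were the other list in which most members were higher. Of 23 members 15 were higher and 5 lower, with a median log2 fold-change of 0.77, and with the length offset 12 were higher and 1 lower at a median of 0.46. Condensin subunits led the list. Ncapg lay between 30.6 and 76.1 CPM against 9.66 to 23.5 CPM (1.37, SE 0.18, 1.39e-05), and Ncapg2 between 27.6 and 46.3 CPM against 5.89 to 18.6 CPM (1.37, SE 0.18, 1.44e-05). Ncapd3 (1.20, SE 0.20, 8.31e-05) and Smc2 (1.12, SE 0.15, 1.39e-05) did not overlap between the groups either. Top2a, the topoisomerase that untangles sister chromatids, named after its values were seen, lay between 400 and 806 CPM against 114 to 278 CPM (1.12, SE 0.14, 1.02e-05). The lower members were the histone variants H2afv, H2afz and H2afx, the nucleosome binding protein Hmgn2 and the histone chaperone Asf1b, at −0.83 to −0.40, with a median transcript length of 1384 bases against 4684 for the higher ones. Their number fell to 2 without any 1 of Set 1 organoids 2 and 6, Set 2 organoids 5, 9 and 11 and Set 4 organoid 7, and to 3 without any 1 of Set 2 organoids 3, 4 and 6.

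Replication genes were less uniform. Of 50 tested members 20 were higher and 2, Tk1 and Tyms, lower, with a median of 0.36, against 26.1% and 24.2% of all genes. With the length offset 13 were higher and 5 lower at a median of 0.20. Without the 5 deepest libraries, all Mki67-low, 9 were higher and 7 lower at a median of 0.05. In that fit 2038 of all 12802 genes were higher and 1877 lower. The counts turned on 1 deep library, since without Set 1 organoid 1 there were 14 higher and 13 lower. Without Set 1 organoid 7 or Set 4 organoid 15 there were 8 lower members, without Set 4 organoid 11, 6, without Set 2 organoid 2 or Set 4 organoid 5, 4, and without Set 2 organoid 11, 1. The E2F site (TTTGGCGC, TTTCCCGC or TTTCGCGC) was in 18 of 39 promoters of this list, 46.2%, against 4.37% of all tested genes and 7.32% of the spindle list. Pola1, the catalytic subunit of the primase polymerase, lay between 32.3 and 62.8 CPM against 11.0 to 30.6 CPM (log2 fold-change 1.14, SE 0.18, adj. P-value 4.44e-05). Brca2, which loads the recombinase at stalled forks, lay between 17.2 and 34.8 CPM against 5.10 to 14.1 CPM (1.11, SE 0.19, 8.22e-05), but was not called with the length offset (0.41, 0.0847). Dnmt1, the maintenance DNA methyltransferase (1.18, SE 0.17, 2.13e-05), and Chaf1a, which deposits histones behind the fork (1.25, SE 0.26, 0.000404), each had 9 of 10 Mki67-high organoids above the highest Mki67-low one. Pcna, the sliding clamp and a common proliferation marker, had medians of 60.4 CPM in the Mki67-high and 67.2 CPM in the Mki67-low organoids (−0.32, SE 0.14, 0.0674). It was called lower without any 1 of Set 1 organoids 1 and 7 and Set 4 organoids 11 and 15, at −0.43 to −0.36.

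Among 14 G1 cyclins, CDKs and pocket proteins 6 were higher and 2 (Cdk4 and E2f4) lower, with a median of 0.46, and with the length offset 4 and 1 with a median of 0.07, and there was 1 lower member without Set 2 organoid 11. Ccnd1, the D-type cyclin induced by growth factors, lay between 246 and 1274 CPM with a median of 604 against 192 to 671 CPM with a median of 205 (0.97, SE 0.28, 0.00725). It was not called without the 5 deepest libraries (0.69, 0.115) or when organoids were ranked within each set (0.33, 0.198). The pocket proteins Rbl1 (0.99, SE 0.20, 0.000344) and Rbl2 (1.20, SE 0.29, 0.00187), repressors of E2F targets, and E2f3 (0.84, SE 0.21, 0.00216) were higher, though E2f3 was not called with the offset (0.41, 0.126). Without the 5 deepest libraries Rbl1 (0.64, 0.0537) and E2f3 (0.65, 0.05003) were not called, while Rbl2 was (1.04, 0.0302). Among genes that restrain the cycle, 7 of 27 CDK inhibitors and p53 targets were higher, a share close to that of all genes, and 2 (Perp and Bax) lower. With the length offset there were 7 and 1, and without the 5 deepest libraries 2 and 2. Without Set 4 organoid 5 there were 4 lower. Cdkn1b, the inhibitor p27 that marks resting cells, lay between 57.4 and 155 CPM against 19.3 to 77.0 CPM (1.08, SE 0.23, 0.000463), and with the length offset was still higher (0.73, adj. P-value 0.0127). Trp53inp1 (1.23, SE 0.40, 0.0123), Gadd45a (0.91, SE 0.32, 0.0213) and Plk2 (0.83, SE 0.24, 0.00645) were higher too, Trp53inp1 without a call with the offset (0.80, 0.120). Without the 5 deepest libraries neither Trp53inp1 (0.87, 0.213) nor Gadd45a (0.83, 0.142) was called, whereas Cdkn1b was (1.44, 0.00200). Gadd45a lost its call without Set 2 organoid 2 (0.83, 0.0526) or Set 2 organoid 11 (0.74, 0.0740) and stood at 0.60 without Set 2 organoid 4, and Plk2 lost it without Set 4 organoid 7 (0.62, 0.0554).

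**Figure D4:**
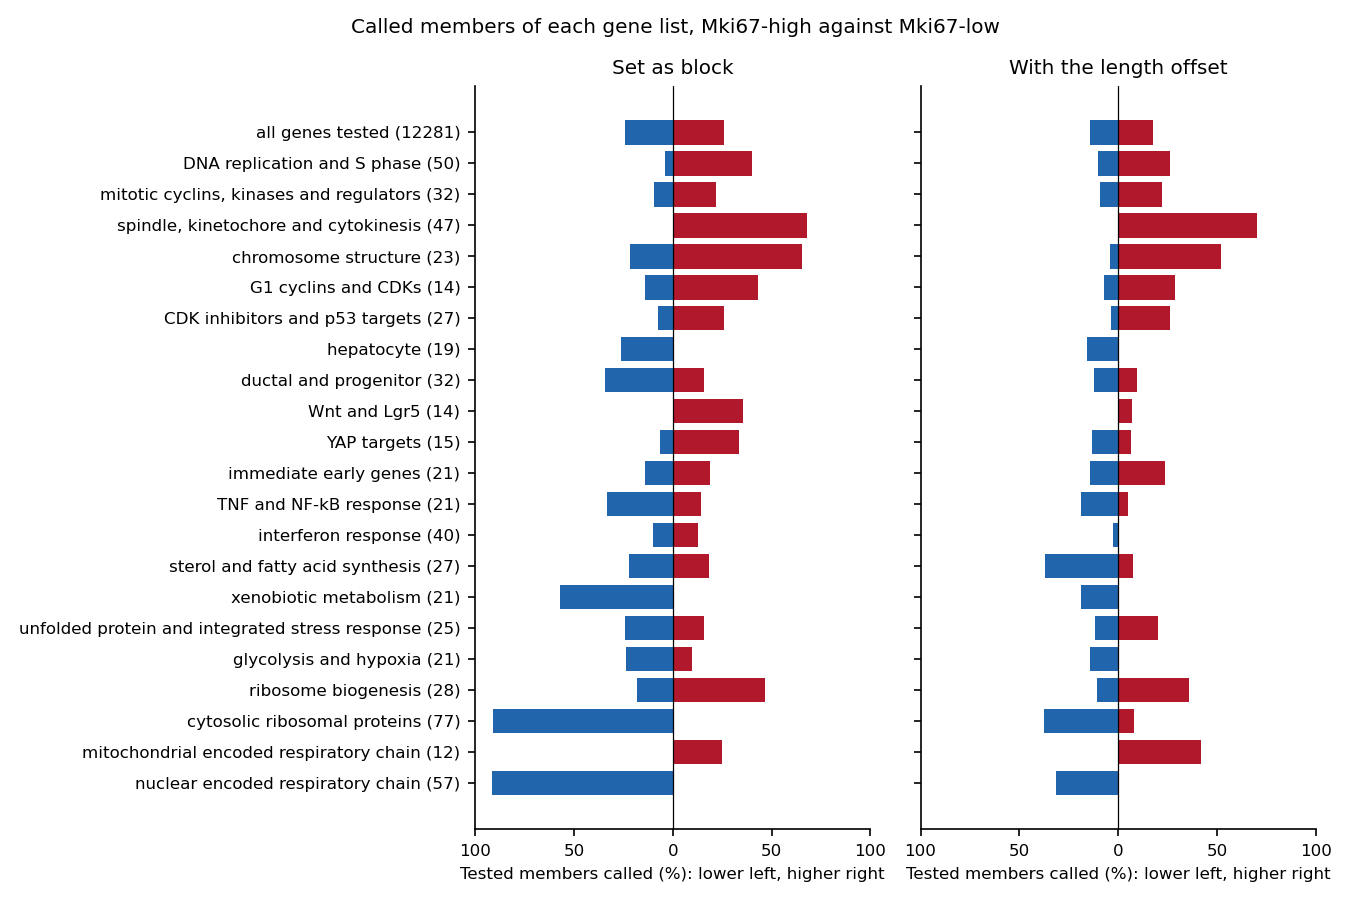
Percentage of tested members of each gene list called lower (blue, to the left) or higher (red, to the right) in Mki67-high organoids, with the set as a block and with the length offset, and all genes tested on top. Numbers in brackets are members tested without the offset. The spindle list has 32 of 47 members higher without and 33 with the offset, whereas the ribosomal protein list falls from 70 to 29 lower members of 77.

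Cell identity genes moved in both directions. Of 32 ductal and progenitor genes 5 were higher and 11 lower, with a median of −0.21, and with the length offset 3 and 4. Without Set 4 organoid 11 there were 8 higher members, and without Set 4 organoid 5 or 15 there were 9. The higher members were transcription factors and the adhesion molecule Epcam. Ehf, an epithelial ETS factor, lay between 327 and 552 CPM against 131 to 248 CPM, without overlap (1.04, SE 0.14, 1.39e-05, and 0.70 with the length offset). Epcam lay between 463 and 1382 CPM against 186 to 531 CPM (0.83, SE 0.20, 0.00138) and was 1.02 higher with the offset. Sox4 (0.95, SE 0.24, 0.00248) and Sox9, the factor that marks bile duct cells (0.70, SE 0.22, 0.0120), were not called with the offset (adj. P-values 0.0732 and 0.150), and Sox9 lost its call without Set 4 organoid 7 (0.54, 0.0736). The lower members were surface, secreted and filament genes. Cd24a, a surface glycoprotein of duct cells, lay between 178 and 404 CPM against 241 to 549 CPM (−0.71, SE 0.14, 0.000311, and −0.47 with the offset). Krt19 (−0.50, SE 0.16, 0.0104) and Krt7 (−0.42, SE 0.16, 0.0369) are keratins of simple epithelia, and Krt7 lost its call without any 1 of Set 1 organoids 2 and 7, Set 2 organoids 4, 5, 9 and 11 and Set 4 organoid 7, at −0.42 to −0.32. With the length offset Krt7 was at −0.68 (0.00424) and Krt19 was not called (−0.20). Tff2, a mucus peptide, lay between 5.97 and 15.1 CPM against 7.19 to 93.6 CPM (−1.61, SE 0.41, 0.00273). Mmp7, a metalloproteinase, had medians of 423 and 567 CPM (−0.95, SE 0.27, 0.00503), and neither Tff2 nor Mmp7 was called with the offset (0.0678 and 0.153).

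Of 37 hepatocyte genes in the list 19 passed the filter. Of these 5 were lower (Trf, Acox2, Rbp4, Ambp and Ttr), a share close to that of all genes, and 0 higher. The median was −0.50, and with the length offset 3 were lower with a median of −0.27. These changes were fitted within sets and were small beside the spread across them. Trf, the iron carrier transferrin, had medians of 68.4 CPM in the Mki67-high and 80.2 CPM in the Mki67-low organoids (−0.99, SE 0.26, 0.00284), and Rbp4, the retinol carrier, had medians of 65.5 and 61.7 CPM although the fitted change was −0.71 (SE 0.21, 0.00750). Without the set block neither was called, and Rbp4 was not called with the offset (−0.27, 0.370). Acox2, a bile acid oxidase (−0.88, SE 0.24, 0.00451), and Ambp (−0.86, SE 0.26, 0.00964) were not called without the 5 deepest libraries (0.145 and 0.173), and Ambp also not with the offset (−0.48, 0.183). Fah, a tyrosine breakdown enzyme (−0.50, SE 0.27, 0.118), and Hnf4a, a hepatocyte factor (−0.25, SE 0.17, 0.225), were not called, though with the length offset Hnf4a (−0.57, 0.0124) was called lower. Hnf4a stood at −0.15 without Set 1 organoid 7. Fah was called lower without Set 1 organoid 1 (−0.64, 0.0419) or Set 4 organoid 5 (−0.71, 0.0386) and stood at −0.31 without Set 2 organoid 2. Of 21 tested genes of xenobiotic metabolism 12 were lower and 0 higher, with a median of −0.59, and 4 were lower with the length offset. Cyp3a13, a cytochrome P450, lay between 6.50 and 21.5 CPM against 11.9 to 152 CPM (−1.15, SE 0.28, 0.00208, and −1.18 with the offset). Gsta1 (−0.83, SE 0.26, 0.0110) and Cyp4b1 (−1.08, SE 0.35, 0.0143) were not called without the 5 deepest libraries (0.175 and 0.513), and Cyp4b1 also not without Set 1 organoid 2 (−0.89, 0.0730) or organoid 7 (−0.75, 0.0620). With the offset neither was called (Gsta1 −0.32, 0.383, and Cyp4b1 −0.87, 0.0779).

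Signalling lists were mixed. Of 14 tested Wnt pathway genes 5 were higher and 0 lower, with a median of 0.38 that was 0.02 with the length offset. Axin2, a direct Wnt target and feedback inhibitor, lay between 18.8 and 68.9 CPM against 6.93 to 28.1 CPM (1.12, SE 0.21, 0.000167) and was the member still called with the offset (0.82, 0.00458). Ctnnb1, which encodes beta-catenin (0.72, SE 0.25, 0.0172), Znrf3 (0.52, SE 0.17, 0.0158) and the co-receptors Lrp6 (0.50, SE 0.17, 0.0163) and Lrp5 were the others. Ctnnb1 lost its call without Set 4 organoid 5 (0.58, 0.0833), Znrf3 without Set 4 organoid 7 (0.40, 0.0784), and Lrp6 without Set 1 organoid 2 (0.38, 0.0695) or 6 (0.39, 0.0519) or Set 2 organoid 11 (0.40, 0.0599), and the list had 3 higher members without any of the last 3. With the length offset Znrf3 and Lrp6 were at −0.02 and −0.14, and Ctnnb1 was not called (0.55, 0.0897). Lgr5, the stem cell receptor for R-spondin, ranged from 0.909 to 17.5 CPM against 0.357 to 4.21 CPM, a few counts at the low end, and did not reach a call (1.07, SE 0.46, 0.0532). It fell to 0.70 without Set 2 organoid 10 and was called without any 1 of Set 2 organoids 3, 4 and 5 and Set 4 organoids 7 and 15 (1.15 to 1.28). Notch2 was not called (0.48, SE 0.22, 0.0691), except without any 1 of Set 2 organoids 3 and 11 and Set 4 organoids 5 and 11 (0.52 to 0.58). Among 15 YAP pathway genes 5 were higher and 1 (Ajuba) lower, with a median of 0.44, and with the length offset 1 and 2 with a median of 0.03. The call of Ajuba was lost without Set 2 organoid 2 or 10 or Set 4 organoid 5. Tead1, the DNA binding partner of YAP, ranged from 22.2 to 63.4 CPM against 6.80 to 22.4 CPM (0.96, SE 0.16, 6.24e-05) and was 0.30 with the offset, not called (0.133).

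Immediate early genes are the first to answer growth factors. Of 21 tested 4 were higher and 3 (Junb, Ier2 and Dusp1) lower, both shares below those of all genes, and with the length offset 5 and 3, with 9 higher without Set 4 organoid 5 and 5 lower without Set 2 organoid 11. Dusp6 and Dusp4, phosphatases induced by and acting on ERK, were higher by 0.97 (SE 0.24, 0.00198) and 0.91 (SE 0.20, 0.000689), and by 0.98 and 0.94 with the offset. Jun (0.72, SE 0.17, 0.00136) was higher, with 8 of 10 Mki67-high organoids above all Mki67-low ones. Areg, which encodes the EGF receptor ligand amphiregulin, was in no list and ran from 18.8 to 313 CPM with a median of 54.2 against 5.18 to 34.9 CPM with a median of 14.1 (1.88, SE 0.53, 0.00567). With the offset it was 2.32 higher, and without the 5 deepest libraries 1.65 (0.0554).

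Genes that answer TNF and interferon make up the inflammatory lists. Of 21 TNF and NF-kB response genes 3 (Nfkbiz, Nfkb1 and Icam1) were higher and 7 lower, with a median of 0.02, and with the length offset 1 and 4. Sod2, the mitochondrial superoxide dismutase, lay between 29.3 and 48.9 CPM in the Mki67-high and between 49.0 and 67.3 CPM in the Mki67-low organoids (−0.93, SE 0.14, 2.75e-05). It was the gene of this list without overlap between the groups, and the length offset moved it further down (−1.42, 9.81e-06). Lcn2, which binds bacterial siderophores (−1.07, SE 0.36, 0.0151), and the chemokine Ccl20 (−0.87, SE 0.25, 0.00657) were lower, and not called with the offset. Of 40 interferon response genes 5 (Stat2, Dtx3l, Ifih1, Ddx58 and Xaf1) were higher and 4 (H2-D1, H2-K1, B2m and Ifi35) lower, both shares below those of all genes, and with the length offset 0 and 1, with 3 higher without Set 2 organoid 2 or 11 and 8 without Set 4 organoid 5. Stat2, a factor of the interferon receptor pathway, ran from 13.8 to 114 CPM against 7.31 to 23.7 CPM (0.87, SE 0.24, 0.00480), and Ifih1, a sensor of viral RNA, from 12.3 to 133 CPM against 6.35 to 21.2 CPM (1.02, SE 0.30, 0.00670). Xaf1 (1.21, SE 0.49, 0.0418) lost its call without any 1 of Set 1 organoid 6, Set 2 organoids 2, 4, 6 and 11 and Set 4 organoids 1, 2, 11 and 13 (0.66 to 1.20), and with the offset Stat2, Ifih1 and Xaf1 were not called.

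Ribosomal proteins and the respiratory chain had the most uniform differences, and also the shortest transcripts. Of 77 cytosolic ribosomal protein genes 70 were lower in Mki67-high organoids and 0 higher, with a median log2 fold-change of −0.69 and a median transcript length of 937 bases. With the length offset 29 were lower and 6 higher, with a median of −0.21. Rpl34 lay between 1834 and 3175 CPM against 3284 to 5043 CPM, without overlap (−1.07, SE 0.14, 1.19e-05), and Rps27a between 1734 and 2693 CPM against 2835 to 4612 CPM (−1.03, SE 0.14, 1.42e-05). Rps4x had the largest change of the list (−1.34, SE 0.19, 2.76e-05), and with the offset these genes were at −0.67, −0.48 and −0.86, all called. Of 57 nuclear genes of the respiratory chain 52 were lower and 0 higher, with a median of −0.64, and 18 with the offset, with a median of −0.18. Ndufa4 (−1.21, SE 0.19, 4.48e-05) and Ndufb5 (−0.92, SE 0.13, 1.92e-05) were among them. Of 12 respiratory chain genes encoded in the mitochondrial genome 3 were higher, a share close to that of all genes, and 0 lower, with a median of −0.23. The offset gave 5 higher and 0 lower, with a median of 0.30 and 11 of 12 values positive. The 3 were mt-Nd5 (1.05, SE 0.20, 0.000203), mt-Nd4l (0.96, SE 0.20, 0.000389) and mt-Nd6 (0.45, SE 0.18, 0.0398), subunits of complex I, as Ndufb5 is. Lower members of this list numbered 4 without Set 2 organoid 10 or Set 4 organoid 5, 2 without Set 1 organoid 7 and 1 without Set 2 organoid 2 or 11. The call of mt-Nd6 was lost without any 1 of Set 1 organoids 2 and 6, Set 2 organoids 2, 6, 10 and 11 and Set 4 organoids 1, 2 and 13, at 0.30 to 0.43.

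Of 28 ribosome biogenesis genes 13 were higher and 5 (Nip7, Nop16, Fbl, Bop1 and Srm) lower, with a median of 0.42, and with the length offset 10 and 3 with a median of 0.20. Ncl, which encodes the nucleolar protein nucleolin, lay between 1339 and 4596 CPM against 588 to 1577 CPM (1.11, SE 0.22, 0.000303). Noc2l (1.27, SE 0.26, 0.000441) and Nolc1 (0.88, SE 0.23, 0.00274) were higher also with the offset, at 1.27 and 0.69, where Ncl was at 0.48 (0.0603). Among 25 genes of protein folding and stress 4 were higher and 6 (Manf, Herpud1, Pdia6, Psat1, Xbp1 and Dnajb9) lower. Neither share was above that of all genes, and with the length offset 5 were higher and 3 lower. Members that act in folding in the endoplasmic reticulum were among both, such as Pdia6 and Dnajb9 among the lower ones. Of the higher ones, Hsp90b1 lay between 943 and 2064 CPM against 551 to 941 CPM (0.73, SE 0.11, 3.96e-05), the same with the offset (0.73). Hspa5 (0.74, SE 0.18, 0.00168) and Pdia4 (0.77, SE 0.20, 0.00261) overlapped between the groups. Of 27 sterol and fatty acid genes 5 were higher and 6 lower, neither share above that of all genes, with a median of −0.03. Without any 1 of Set 1 organoids 2 and 6 and Set 2 organoids 2 and 11 there were 3 higher. The offset gave 2 higher and 10 lower, with a median of −0.24 and 21 of 27 values negative. In the first comparison Idi1 stood at 0.95 (SE 0.22, 0.00110) and Mvd, an enzyme of the same pathway, at −0.62 (SE 0.13, 0.000661). Of 21 glycolysis and hypoxia genes 2 (Vegfa and Ndrg1) were higher and 5 lower, neither share above that of all genes. With the length offset there were 0 and 3. Here Set 2 organoid 11 decided both higher calls, which numbered 1 without any 1 of 9 other libraries, and lower members numbered 8 without Set 4 organoid 5 or 15 and 3 without Set 1 organoid 2 or Set 4 organoid 7.

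Outside the lists, the largest falls among well-expressed genes were in epithelial genes and in pseudogenes. Plet1, a surface protein of progenitor epithelia, had medians of 39.3 and 91.0 CPM (−1.50, SE 0.33, 0.000670). Sptssb, a subunit of the first enzyme of sphingolipid synthesis (−1.62, SE 0.47, 0.00621), and the mucin-like Dmbt1 (−1.93, SE 0.75, 0.0363) were not called without the 5 deepest libraries (0.270 and 0.371). Dmbt1 lost its call without any 1 of Set 1 organoids 2, 6 and 7 and Set 4 organoids 5 and 7, and was −1.11 without Set 4 organoid 15. Gm9616 (−1.60, SE 0.22, 2.02e-05) and Gm13680 (−1.58, SE 0.23, 2.59e-05) are annotated as processed pseudogenes. Of 1018 processed pseudogenes tested 453 were lower and 233 higher, against 24.2% and 26.1% of all genes. They were not counted with the length offset, and their counts may share reads with their parent genes. The largest rises were of short noncoding RNAs, Gm24270 (2.52, SE 0.73, 0.00660), Gm23935 (2.18, SE 0.68, 0.0104) and Gm24447 (2.05, SE 0.55, 0.00396). They stood at 1.61, 1.31 and 1.35 without Set 2 organoid 10. By annotated type, 6 of 6 rRNA, 7 of 8 misc_RNA and 2 of 2 mitochondrial rRNA genes tested were higher and 0 lower. Of 15 snoRNA genes 3 were higher and 0 lower, and of 17 miRNA genes 4 and 3. Actb, on which the input of these libraries was set by qPCR, lay between 2508 and 4741 CPM against 949 to 3987 CPM (0.89, SE 0.19, 0.000721), and was not called when organoids were ranked within each set (0.26, 0.207).

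The sets were also examined alone. In Set 2, with 5 against 3 organoids, 2159 genes were higher and 2083 lower, and in Set 1, with 2 against 2, 304 and 601. In Set 4, with 2 against 5, edgeR called no gene, and 2101 had an unadjusted P-value below 0.05. The spindle list had 22 higher and 2 lower members in Set 2 and 28 and 0 in Set 1, and in Set 4 its median was 0.79 with 41 of 47 positive values. The list of mitotic cyclins and kinases had 2 higher and 10 lower members in Set 2, and 2 and 0 in Set 1, with medians of −0.37 and 0.47. Whether the sets differed in these lists was not tested.

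The 15 organoids in neither group took no part in the comparison, and each gene was regressed on their log2 Mki67 CPM, with the set as a block. No gene was called by edgeR at an adj. P-value below 0.05. The unadjusted P-value was below 0.05 for 811 of 10742 genes, and limma-voom also called none, with 851. Without the set block no gene was called either, and 265 genes, 2.47%, had an unadjusted P-value below 0.05. Of the 3206 genes that were higher in Mki67-high organoids, 3030 were tested here and 2657 had a positive slope, 87.7%, against 50.2% of all genes. Of the 2973 that were lower, 2875 were tested and 2608 had a negative slope, 90.7%, against 49.8%. Spearman's rho between slope and transcript length was 0.41 across 9582 genes, so the length gradient was present in these organoids as well. The spindle list had 39 of 47 positive slopes and a median of 0.43 per doubling of Mki67, while the mitotic cyclins and kinases had 12 of 32 and −0.08.

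Whole cultures gave a further contrast in Mki67, on another scale. Bulk libraries were made from total RNA and single organoid libraries from extracted mRNA. Mki67 in all 6 cultures lay below that of the Mki67-low organoids (109 to 210 CPM), so levels are compared only between cultures. In 3 dome and 3 suspension cultures, grown from pools of animals, Mki67 was between 4.61 and 6.89 CPM in domes and between 24.8 and 41.0 CPM in suspension (log2 fold-change −2.26, SE 0.30, adj. P-value 0.00149). Of 12699 genes 1872 were lower in domes (14.7%) and 1907 higher (15%). Without any 1 suspension culture the calls were fewer, with 929 to 1064 higher and 950 to 1145 lower. Of the spindle genes 44 of 47 were lower in domes and 0 higher, and of the mitotic cyclins and kinases 24 of 32 lower and 1 higher, with medians of −1.88 and −1.45. Cdk1 (−1.43, 0.00481) and Ccna2 (−1.76, 0.00841), which overlapped between Mki67-high and Mki67-low organoids, were lower in domes, as were Anln (−2.29, 0.00239) and Top2a (−2.06, 0.00101). Of the genes higher in Mki67-high organoids, 1009 were lower in domes, which is 31.5% of them and 53.9% of all genes lower in domes. Of those lower in Mki67-high organoids, 941 were higher in domes, 31.7% of them and 49.3% of all genes higher in domes. The other way went 71 genes higher in both and 92 lower in both (2.21% and 3.09%). Transcript length went with this contrast too, with a Spearman's rho of −0.32 across 10987 genes.

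In bulk cultures of Sets 1, 3 and 4 the libraries labelled passage 11 were compared with those labelled passage 4, 3 against 3 after technical replicates were summed. Whether the labels give the right passage is uncertain, so directions are those of the labels and may be exchanged. Mki67 was 10.4, 22.5 and 11.4 CPM at the label passage 11 and 6.90, 10.9 and 11.7 CPM at passage 4 (0.61, SE 0.31, 0.191). Of 13738 genes 1392 were higher at the label passage 11 (10.1%) and 1392 lower (10.1%). Without Set 3 at either label, or Set 4 at passage 4, there were 736 to 884 higher and 816 to 904 lower. Mitotic cyclins and kinases had 24 of 32 members higher, with a median of 1.42, and spindle genes 29 of 46, with a median of 1.15. Ccna2 was higher by 2.41 (0.000164), Ccnb1 by 1.82 (0.000418), Plk1 by 2.11 (0.000343) and Cdk1 by 1.38 (0.000353). Anln (0.64, 0.101) and Prc1 (0.44, 0.360), which separated the single organoids, were not called. Ribosomal proteins, lower in Mki67-high organoids, had 3 of 77 lower and 0 higher members, and the nuclear respiratory chain 29 of 57 higher and 0 lower. Interferon response genes had 35 of 44 lower and 0 higher members, with a median of −1.68. Genes higher in Mki67-high organoids included 541 lower at the label passage 11 (16.9%) and 171 higher (5.33%). Genes lower in Mki67-high organoids included 609 higher at that label (20.5%) and 129 lower (4.34%). Spearman's rho between this log2 fold-change and transcript length was −0.34 across 11194 genes.

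**Figure D5:**
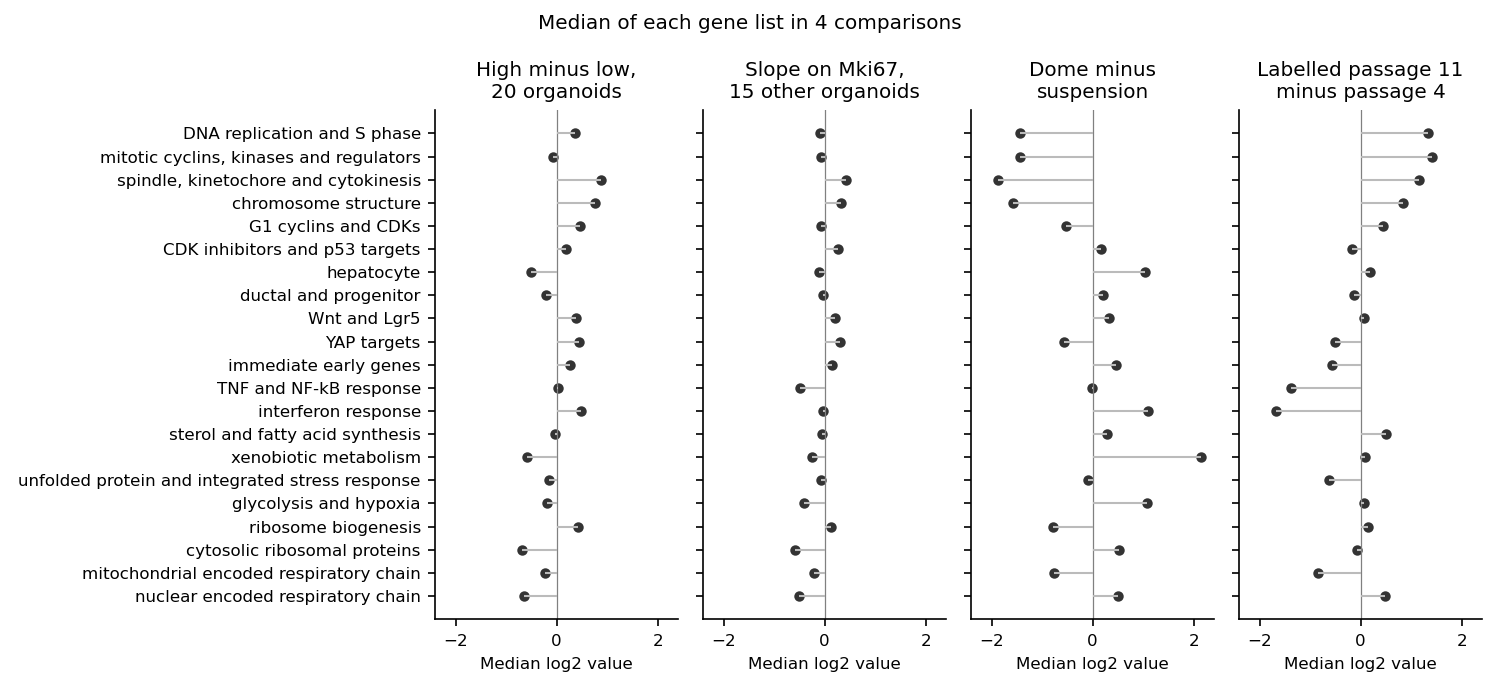
Median log2 value of each gene list in 4 comparisons: Mki67-high minus Mki67-low organoids, slope on Mki67 in the 15 other organoids, dome minus suspension cultures, and libraries labelled passage 11 minus passage 4. The medians of spindle genes and of mitotic cyclins and kinases are 0.89 and −0.08 in the first, and −1.88 and −1.45 in the dome comparison.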

How the data were processed

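Single cholangiocyte organoids, dome and suspension cultures and bulk passages were read by 3′-end RNA-seq. The authors mapped reads to mm10 with STAR within zUMIs, counted them per gene with featureCounts and down-sampled them. The deposited tables hold raw counts per gene. No source used here says whether a count is a molecule or a read. The submitters' processing notes name SAMtools 1.9, R 3.6.3, edgeR 3.28.1 and limma 3.42.2. Sets, cultures and passages were taken from the labels.

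Counts were tested with edgeR 4.0.16 (R 4.3.3) by its quasi-likelihood F-test with TMM scaling, filterByExpr with a minimum count of 3, the set as a block and Benjamini-Hochberg adjustment over all genes tested, Mki67 left out. A gene was called at an adjusted p below 0.05. The 10 highest and 10 lowest organoids by Mki67 CPM were compared. Log10 totals and mitochondrial shares were compared by permutation tests with 100000 resamples. CPM are counts divided by the column total. Transcript lengths are of the longest annotated protein-coding transcript. The length offset is a lowess curve of each library's levels on log2 length, given to edgeR as gene-wise offsets. Technical replicates (2) of bulk passages were summed. Tests were checked on simulated data.

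Named genes were up to 4 called members of each list with the largest change and an average log2 CPM of at least 3, up to 6 called genes in no list in each direction with at least 4, Actb, and Fah, Notch2, Lgr5, Epcam, Sox9 and Hnf4a. Some genes that this rule names are not reported here. Other genes were named after their values were seen: Top2a, Aspm, Cdk1, Ccnb1, Ccna2, Plk1, Cdc20, Pcna, the ductal markers, the called members spelled out beside a list's count, and genes with printed promoters. The members, lists and tests were chosen with earlier results of these data known. Same-numbered dome and suspension cultures deviated together (correlations 0.250 to 0.369), and bulk passages of a set come from 1 mouse (0.0350 to 0.192). What the organoid numbers stand for is not stated in the labels. Same-numbered organoids of different sets had correlations of −0.551 to 0.615 (median 0.113). Nothing in the labels says that organoids of a set are separate cultures, so P-values measure the spread between these libraries. The alternatives were RLE scaling, no filter or a minimum count of 10, limma-voom (3.58.1), DESeq2 (1.42.0), no set block, an organoid number block, thinning, depth as a covariate, groups of 8 or 12, ranking within sets, all 35 or 42 organoids, a slope, and organoids or sets left out or alone. Added after seeing the data were leaving out the 5 deepest libraries or Set 2 organoids 2 and 6, and the length alternatives.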

Additional observations from a re-analysis of the deposited data

Results flagged for a closer look

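Of 200 groups of 10 values examined, 33 had 1 organoid farther from the other 9 than Dixon's limit allows. The limit gives about 1 in 20 for independent, normally distributed values. CPM of genes in the same organoids need not be such values, so 33 is a description only. Many fell on the same few libraries, and no cause was tested.

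Among the Mki67-high organoids, Set 2 organoid 4, the organoid with the most Mki67, was highest for Gadd45a (175 CPM), Xaf1 (229 CPM), Ifih1 (133 CPM), Stat2 (114 CPM), Areg (313 CPM), Ncl (4596 CPM) and Chaf1a (49.5 CPM). Set 2 organoid 10 was highest for the short RNAs Gm24270 (1016 CPM), Gm23935 (1485 CPM) and Gm24447 (1379 CPM), for Jun (491 CPM), Lgr5 (17.5 CPM) and mt-Nd4l (1083 CPM), and had the largest mitochondrial share (5.07%). Set 4 organoid 5 was highest for Plk1 (53.6 CPM), Rps4x (5429 CPM), Rpl34 (3175 CPM), Rps27a (2693 CPM) and Gm13680 (203 CPM). Set 1 organoid 2 was highest for Lrp6 (96.4 CPM) and Cyp4b1 (51.5 CPM).

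Among the Mki67-low organoids, Set 1 organoid 1, the deepest library, was highest for Cyp3a13 (152 CPM), Gsta1 (237 CPM), Hspa5 (1090 CPM) and Rbl2 (11.1 CPM). Set 4 organoid 11 was highest for Plk2 (71.5 CPM), Dusp4 (16.9 CPM) and Actb (3987 CPM), and Set 4 organoid 15 for Mmp7 (2168 CPM) and Dmbt1 (278 CPM). Set 2 organoids 2, 6 and 11 were highest for Rbl1 (14.6 CPM), Ifih1 (21.2 CPM) and Gm24447 (69.2 CPM).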

How the results depend on the processing

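Higher and lower genes kept to within 1.5 times of 3206 and 2973 under the other scaling, filters, tests, group sizes and rankings, and leaving out each organoid gave 2728 to 3297 and 2554 to 3254. They moved to 1443 and 1422 without Set 2, 304 and 601 in Set 1 alone, 0 and 0 in Set 4 alone, 2038 and 1877 without the 5 deepest libraries, and 1742 and 1588 when the rest were also thinned. They were 2141 and 1760 with the length offset and 0 and 0 with the length slope as covariate. Ranked on Mki67 after the offset, and tested with it, they were 107 and 40. With organoid numbers as a replicate block they were 0 and 0, on 4 residual degrees of freedom, with 1802 genes at an unadjusted p below 0.05. The replicate block changed no call count by over 1.5 times in domes (2028 higher, 1991 lower) or passages (1435, 1515). Leaving out 1 culture gave 929 to 1976 higher and 950 to 1921 lower genes in domes, and 736 to 1146 and 816 to 1109 at passage 11. The difference in log10 total was −0.29 with 8 against 8 organoids (p = 0.0429), and that in mitochondrial share 0.749 with 8 and 0.499 with 12 (p = 0.0196 and 0.0469, permutation tests). Of 97 named genes 81 kept their call whichever organoid was left out. Signs turned with the length slope as covariate for Ccnd1 (−0.69), Rbl2 (−0.45), Gadd45a (−0.86), Plk2 (−0.88), Trp53inp1 (−0.53), Krt19 (0.0593), Cd24a (0.0948), Lrp6 (−0.39), Dusp6 (−0.62), Xaf1 (−1.15), Ifih1 (−0.48), Idi1 (−0.23), Mvd (0.0964), Hspa5 (−0.20), Pdia4 (−0.0683), Ncl (−0.0465), Areg (−0.75) and Egfl7 (0.28). They turned with the length offset for Znrf3 (−0.0192) and Lrp6 (−0.14), with the ranking after it for Sox4 (−0.0412) and Ctnnb1 (−0.14), without Set 2 for Xaf1 (−0.32), and in Set 4 alone for Xaf1 (−0.71) and Areg (−0.12). The cause was not tested. The Mki67 level rested on 244 counts or more in each of the 20 organoids, whereas Lgr5 fell as low as 0.357 CPM, a few counts at most, which limits its precision.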
